A study of Mus musculus with 40 samples.

Results

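Wnt pathway factors and targets are described here through 10 genes, taken by their symbols from the count tables of an RNA sequencing series in mouse embryonic stem cells. The 10 genes are the DNA-binding factors Lef1, Tcf7, Tcf7l1 and Tcf7l2, their partner Ctnnb1, the feedback inhibitors Axin2, Nkd1 and Rnf43, and the targets Sp5 and Cdx1. They stand among 55393 gene symbols in the series, of which 22331 were tested in at least 1 table. All 10 passed the filter on low counts in every table. The cells are E14tg2a, a mouse embryonic stem cell line, which the labels describe as kept in GMEM medium with fetal bovine serum and LIF, the cytokine that holds such cells undifferentiated. The series asks how loss of CtBP acts on the programme driven by DUX, a transcription factor of the early cleavage embryo. One table, called the genotype table, compares wild-type (WT) cells with DuxKO, Dppa2KO and CtbpDKO cells, the last lacking both CtBP genes, with 2 libraries for each genotype. It also has Ctbp-Dux TKO cells, the triple knockout with Dux, and DKO-Dppa2 cells, described as the double knockout with Dppa2. Another, called the Pramel7 table, sets 4 WT libraries beside DuxKO, P7KO, P7OE and DuxKO-P7OE cells at 2 libraries each, where P7 stands for Pramel7, KO for knockout and OE for overexpression. The time course holds 2 libraries at each of days 0, 3, 9, 12 and 18 of cells labelled CtbpDKO and Dox. None of the labels says whether libraries of a group came from separate cultures or clones, so every p-value measures only the spread between these libraries, which may be technical.

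In canonical Wnt signalling, a Wnt protein binds a Frizzled receptor and its Lrp co-receptor, which stops a cytoplasmic complex of Axin, Apc and Gsk3 from marking β-catenin for degradation. β-catenin, the product of Ctnnb1, then enters the nucleus and joins Tcf and Lef proteins on DNA, where they otherwise work with co-repressors. In mouse embryonic stem cells the pathway sustains self-renewal, with Tcf7l1 acting mainly as a repressor, and it also drives genes of the primitive streak. CtBP proteins are co-repressors that bind short peptide motifs in their partners, and some Tcf proteins carry such motifs. Axin2, Nkd1 and Rnf43 feed back on the pathway at the Axin complex, at Dishevelled and at the Frizzled receptors, in that order. Sp5 is a zinc finger transcription factor and Cdx1 a caudal-type homeobox factor, and both are known Wnt targets.

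The core motif that Tcf and Lef proteins recognise, CTTTGA, was searched on both strands in the 250 bases before each listed start (GRCm38.p6). A listed start can lie inside a gene. Of 32851 such windows over 27025 genes, 13.8% held it at least once and 1.37% at least 2 times. The table held 16 windows for 9 of the 10 genes, and Cdx1 had none. The only windows of Axin2 (chr11:108920099-108920348) and Nkd1 (chr8:88527383-88527632) lie inside these genes, which begin at 108917828 and 88521342. The bases before those 2 gene starts were therefore not searched. Of the 16 windows, 2 held the motif, each of them 2 times. Those 2 are shown, with the motif in capitals, because they are the windows that hold it and because Sp5 and Lef1 passed the test in several comparisons below. The Sp5 window is chr2:70474673-70474922 on the plus strand, and its matches begin 204 and 104 bases before the start. The Lef1 stretch, chr3:131156094-131156199 on the plus strand, lies before an internal start of that gene, with the motif reading as TCAAAG from the opposite strand 180 and 120 bases before it. A match is a description of the letters and not a binding site.
Sp5: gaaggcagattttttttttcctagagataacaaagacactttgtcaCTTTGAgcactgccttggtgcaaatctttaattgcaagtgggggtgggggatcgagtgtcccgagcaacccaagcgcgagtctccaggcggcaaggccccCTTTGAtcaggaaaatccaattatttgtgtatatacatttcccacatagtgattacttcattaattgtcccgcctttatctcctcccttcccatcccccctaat
Lef1: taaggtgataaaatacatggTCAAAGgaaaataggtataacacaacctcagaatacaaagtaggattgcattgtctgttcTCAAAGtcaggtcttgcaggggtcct

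The libraries held from 10123058 to 36025046 counted reads. Ctbp1 had 1911 and 2109 counts in WT libraries of the genotype table and 0 to 4 counts in every library of CtbpDKO, Ctbp-Dux TKO and DKO-Dppa2 cells. Ctbp2 fell 4.87-fold in CtbpDKO cells (edgeR adjusted p = 7.65e-10), so reads from its locus were still counted there. Counts of Duxf3, the symbol under which Dux appears, were 40 and 24 in CtbpDKO cells and 1 and 0 in WT cells of the genotype table. They were 0 in its DuxKO and Ctbp-Dux TKO libraries. With WT at 1 and 0, the counts of DuxKO cells cannot serve as a check of that knockout. Dppa2 counts were 1208 and 1027 in Dppa2KO cells and 426 and 464 in DKO-Dppa2 cells, against 1707 and 1868 in WT, so RNA of the gene was still counted in both. The title of the DKO-Dppa2 pair names Dppa2 and Dux and its description the double knockout and Dppa2. Its 4 and 0 Ctbp1 counts go with the description, and its Duxf3 counts of 0 and 0 cannot be told apart from those of Dppa2KO cells, which also had 0. Pramel7 had 431 to 588 counts in the overexpressing libraries and at most 4 in WT, so the knockout, with 0 and 3, cannot be checked this way. All 10 embryonic stem cell markers searched were above 0 in every group, with summed levels from 2125 to 3982 CPM (read counts per unit of scaled library size).

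Loss of CtBP moved genes of this pathway in both directions. Of the 10 genes, 2 were higher and 3 lower in CtbpDKO than in WT cells by edgeR's quasi-likelihood test at a Benjamini-Hochberg adjusted p under 0.05, against 26.1% of the 21193 genes tested (14.7% higher, 11.4% lower). In DuxKO cells 1 was higher and 4 lower (17.5% of all genes called), and in Dppa2KO cells 1 was lower (16.4%). These comparisons share the 2 WT libraries. Adding the Dux knockout to CtbpDKO raised 1 and lowered 1 (8.15%). Ctbp-Dux TKO cells had 3 higher and 2 lower than DuxKO cells (41%). DKO-Dppa2 cells had 1 higher and 2 lower than CtbpDKO cells (15.4%), and 3 higher and 2 lower than Dppa2KO cells (30.4%). The effect of CtBP loss differed between cells with and without the Dux knockout for 2 genes (interaction term, 19.5% of all genes). It differed with and without the Dppa2 knockout for 2 (8.23%). The number of members called lay within 1 gene of the background share in Dppa2KO against WT, in Ctbp-Dux TKO against DuxKO and in the interaction with Dux. Their median log2 fold change in CtbpDKO cells was -0.33 beside 0.01 over all genes. Libraries of the groups compared did not overlap for 63.3% of all genes in CtbpDKO against WT. The share was 71.8% in Ctbp-Dux TKO against DuxKO and 63.4% in DKO-Dppa2 against Dppa2KO. Against WT it was 60.2% in DuxKO and 58% in Dppa2KO. Against CtbpDKO it was 53.2% in Ctbp-Dux TKO and 58.1% in DKO-Dppa2. In bulk samples, fewer cells of a type and less RNA per cell cannot be told apart.

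**Figure D1:**
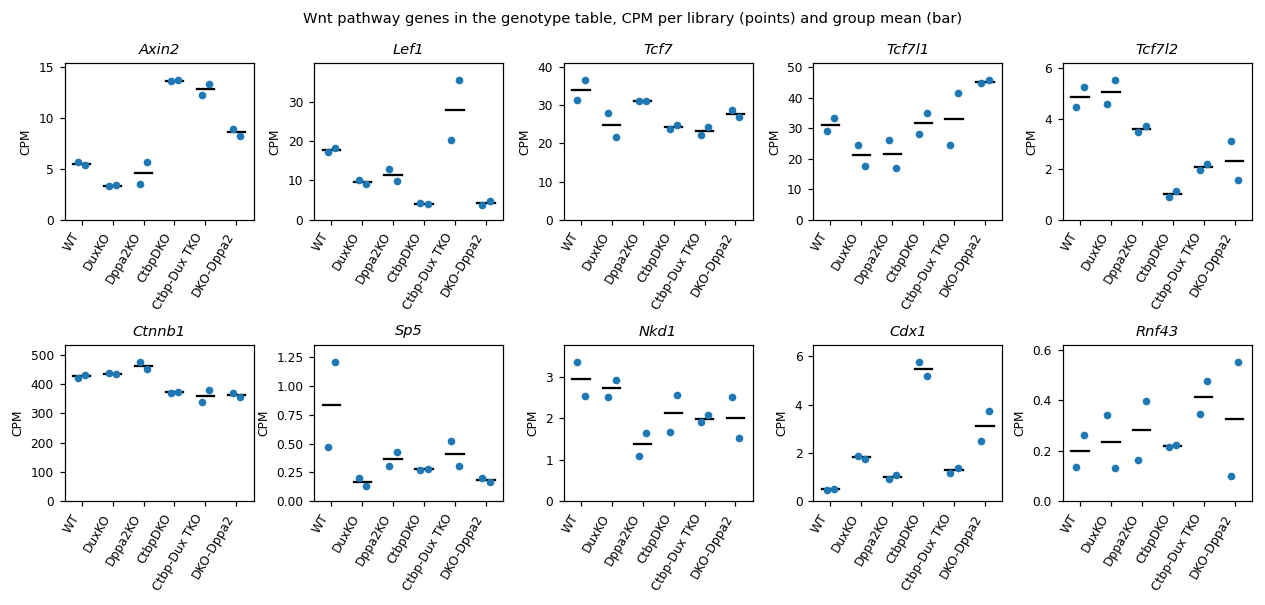
Levels of the 10 genes in the genotype table. Each panel has the genotypes on the x axis and CPM on the y axis from 0, with points for the 2 libraries of a group and a bar for their mean. Axin2 and Cdx1 stand high and Lef1 and Tcf7l2 low in CtbpDKO, and Lef1 stands high in Ctbp-Dux TKO.

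Lef1, a β-catenin partner that activates targets in many embryonic tissues, had the widest span of the DNA-binding factors. Its levels were 17.3 and 18.2 CPM in WT, 10.2 and 9.04 in DuxKO and 13.0 and 9.93 in Dppa2KO libraries. CtbpDKO libraries had 4.18 and 3.97 CPM, DKO-Dppa2 libraries 3.76 and 4.75, and Ctbp-Dux TKO libraries 20.4 and 35.5. CtbpDKO and DKO-Dppa2 therefore formed the low end and overlapped each other, DuxKO and Dppa2KO overlapped in the middle, and Ctbp-Dux TKO lay above every other group with its 2 libraries far apart. Lef1 fell 4.35-fold in CtbpDKO cells (log2 fold change -2.12, SE 0.23, edgeR adjusted p = 1.55e-05). It rose 6.88-fold in Ctbp-Dux TKO over CtbpDKO (log2 2.78, SE 0.232, edgeR adjusted p = 2.31e-05) and 2.91-fold over DuxKO (edgeR adjusted p = 8.86e-05). The response to CtBP loss thus went in opposite directions with and without the Dux knockout: the interaction was 3.66 on the log2 scale (SE 0.317, edgeR adjusted p = 7.77e-06). In the cells with the Dppa2 knockout, by contrast, Lef1 fell 2.68-fold with CtBP loss (edgeR adjusted p = 0.000548). Duxf3 counts were also 0 in those Dppa2KO and DKO-Dppa2 libraries. Loss of Dux and other differences of the Ctbp-Dux TKO cells cannot be told apart in this design. In DuxKO cells alone it was lower than in WT by 0.88 on the log2 scale (-0.88, edgeR adjusted p = 0.0132), a call lost when any 1 of the 4 libraries was left out (adjusted p from 0.0505 to 0.0986). The primitive endoderm markers, 10 genes, summed to 839 to 879 CPM in Ctbp-Dux TKO, 270 to 297 in CtbpDKO and 165 to 195 in WT, with Afp at 0 in CtbpDKO and WT. Their part in the level of Lef1 was not tested.

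Tcf7l2, a Tcf factor that can repress or activate, was also low without CtBP. It had 4.46 and 5.25 CPM in WT, 4.59 and 5.52 in DuxKO and 3.47 and 3.72 in Dppa2KO libraries, against 0.88 and 1.12 in CtbpDKO. Ctbp-Dux TKO libraries held 1.95 and 2.21 CPM, and DKO-Dppa2 libraries 3.10 and 1.57. All 6 libraries without CtBP lay below the lowest of the 6 others. The fall was 4.82-fold in CtbpDKO (log2 -2.27, SE 0.296, edgeR adjusted p = 7.81e-05) and 2.42-fold in Ctbp-Dux TKO relative to DuxKO (edgeR adjusted p = 0.00261). With the Dppa2 knockout the difference was -0.63 and did not pass the test (edgeR adjusted p = 0.111). The interaction with Dppa2 was 1.63 (edgeR adjusted p = 0.0284), and it was lost without any 1 of 6 of its 8 libraries (adjusted p from 0.0518 to 0.134, and a value of 1.08 without replicate 1 of DKO-Dppa2). DKO-Dppa2 cells rose over CtbpDKO by 1.20 (edgeR adjusted p = 0.022), falling to 0.64 (adjusted p = 0.242) without replicate 1 of DKO-Dppa2, and the call was also lost without either CtbpDKO library.

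Tcf7 and Tcf7l1 varied less. Tcf7, whose product TCF1 works with Lef1 as an activator, had 31.3 and 36.5 CPM in WT, with CtbpDKO at 23.9 and 24.9 and DuxKO at 28.1 and 21.6. It was lower in CtbpDKO by 1.39-fold (edgeR adjusted p = 0.0127) and in DuxKO by 1.37-fold (edgeR adjusted p = 0.0256). The first call was lost without WT replicate 2 (0.115) or CtbpDKO replicate 1 (0.0663), and the second without WT replicate 2 (0.228) or DuxKO replicate 2, where the value was -0.27 (0.25). Dppa2KO, Ctbp-Dux TKO and DKO-Dppa2 libraries lay between 22.3 and 31.2 CPM. Tcf7l1, the repressor of the family in stem cells, was highest in DKO-Dppa2 with 44.9 and 45.7 CPM, above every other library of the table. It rose 2.1-fold there over Dppa2KO (26.0 and 17.0 CPM, log2 1.07, SE 0.239, edgeR adjusted p = 0.00407). WT libraries had 29.0 and 33.3 CPM and CtbpDKO 28.2 and 35.1, which overlap. Ctbp-Dux TKO libraries were split at 24.5 and 41.5 CPM, and the rise of 0.65 over DuxKO (24.6 and 17.7 CPM, edgeR adjusted p = 0.0447) dropped to 0.18 (adjusted p = 0.585) without the higher one and to 0.41 (adjusted p = 0.298) without DuxKO replicate 2.

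Ctnnb1, which encodes β-catenin, moved little at the RNA level. It had 421 and 432 CPM in WT, 437.5 and 435 in DuxKO and 476 and 450.4 in Dppa2KO libraries. The 6 libraries without CtBP lay from 339 to 380.4 CPM, below all 6 others. In CtbpDKO against WT the difference was -0.20 and did not pass the test (edgeR adjusted p = 0.103). Libraries of those groups did not overlap for 63.3% of all genes. The difference passed the test in DKO-Dppa2 against Dppa2KO, a fall of 1.28-fold (log2 -0.35, SE 0.0839, edgeR adjusted p = 0.00613), and in Ctbp-Dux TKO against DuxKO, a fall of 1.21-fold (edgeR adjusted p = 0.0169). The second was lost without DuxKO replicate 1 (adjusted p = 0.0755) or Ctbp-Dux TKO replicate 1 (0.146). RNA gives no measure of the stability or place of the protein, by which the pathway acts.

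Of the feedback inhibitors, Axin2 rose with the loss of CtBP on each background. It had 5.67 and 5.38 CPM in WT, 3.33 and 3.39 in DuxKO, and 3.50 and 5.70 in Dppa2KO. CtbpDKO libraries had 13.7 and 13.7 CPM, Ctbp-Dux TKO 12.3 and 13.3, and DKO-Dppa2 8.97 and 8.22. The lowest library without CtBP was thus above the highest with it, and the Dux knockout alone lay at the bottom. Axin2 rose 2.48-fold in CtbpDKO (log2 1.31, SE 0.184, edgeR adjusted p = 0.000147), 3.81-fold in Ctbp-Dux TKO over DuxKO (log2 1.93, SE 0.194, edgeR adjusted p = 4.6e-06), and 1.87-fold in DKO-Dppa2 over Dppa2KO (log2 0.90, SE 0.19, edgeR adjusted p = 0.00285). The last value was 0.57 without Dppa2KO replicate 1, still past the threshold (adjusted p = 0.0273). Neither interaction passed the test. Axin2 was lower in DuxKO than in WT by 1.64-fold (edgeR adjusted p = 0.0245) and lower in DKO-Dppa2 than in CtbpDKO by 1.59-fold (edgeR adjusted p = 0.0245). Either call was lost when any 1 of its 4 libraries was left out, with adjusted p from 0.0834 to 0.123 and from 0.0714 to 0.153.

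Nkd1 was low, with 36 to 100 counts per library of this table, and Rnf43, with 2 to 14, was near the lower limit of what these depths resolve. Nkd1 had 3.36 and 2.54 CPM in WT and 1.10 and 1.64 in Dppa2KO, and it lay from 1.52 to 2.93 CPM in the other 4 groups. It was lower in Dppa2KO by 2.15-fold (edgeR adjusted p = 0.0341), a call lost without WT replicate 1 or 2 or Dppa2KO replicate 1 (adjusted p from 0.0583 to 0.218). Rnf43 stayed at or under 0.551 CPM in all 12 libraries of this table and passed the test in no comparison of the series.

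Cdx1 was the member with the largest fold change in CtbpDKO cells. WT libraries had 0.47 and 0.522 CPM (14 and 16 counts), CtbpDKO 5.76 and 5.17 (189 and 185 counts), and DKO-Dppa2 2.50 and 3.73. DuxKO libraries had 1.87 and 1.76 CPM, Ctbp-Dux TKO 1.17 and 1.39, and Dppa2KO 0.908 and 1.11. WT was the lowest group and CtbpDKO the highest, with no overlap between neighbours in the order WT, Dppa2KO, Ctbp-Dux TKO, DuxKO, DKO-Dppa2 and CtbpDKO. Cdx1 rose 10.9-fold in CtbpDKO (log2 3.45, SE 0.303, edgeR adjusted p = 2.32e-06) and 3.64-fold in DuxKO (log2 1.86, SE 0.318, edgeR adjusted p = 0.00135). It then fell 4.24-fold from CtbpDKO to Ctbp-Dux TKO (log2 -2.08, SE 0.273, edgeR adjusted p = 0.000537). Between Ctbp-Dux TKO and DuxKO the difference was -0.50 and did not pass the test (edgeR adjusted p = 0.186). The interaction was -3.95 (SE 0.418, edgeR adjusted p = 4.02e-05). Over Dppa2KO it rose 3.1-fold in DKO-Dppa2 (edgeR adjusted p = 0.000663), with an interaction of -1.82 (edgeR adjusted p = 0.0184). The fall from CtbpDKO to DKO-Dppa2 was -0.80 (edgeR adjusted p = 0.048), and it lost its call without any 1 of its 4 libraries (adjusted p from 0.0545 to 0.27), as did the interaction with Dppa2 without 5 of the 8 libraries (adjusted p up to 0.0656). The 10 trophoblast markers summed to 169 to 182 CPM in CtbpDKO and 171 to 172 with Dux also lost, and to 41.9 to 45.1 in WT, where Elf5 was at 0, and their part in the level of Cdx1 was not tested.

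Sp5 was low throughout this table. WT libraries had 14 and 37 counts, DuxKO 6 and 4, Dppa2KO 11 and 15, CtbpDKO 9 and 10, Ctbp-Dux TKO 12 and 9, and DKO-Dppa2 4 and 4. The lower WT library thus held about as many counts as the Ctbp-Dux TKO libraries, and the higher WT library stood alone. It was lower in DuxKO by 4.89-fold (log2 -2.29, SE 0.704, edgeR adjusted p = 0.0393). That value was -1.45 (adjusted p = 0.369) without WT replicate 2, and the call was also lost without either DuxKO library (0.126 and 0.197) and by DESeq2 (0.0673). In CtbpDKO the difference was -1.58 (edgeR adjusted p = 0.0952).

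Other genes of the pathway were read from lists by role, 114 of which were tested in this table. In CtbpDKO cells 18 were higher and 27 lower than in WT, beside 26.1% of all genes. Among the ligands and their secretion factors 5 of 16 rose and 2 fell, and Wnt7b and Wnt6 led with 3.59 and 2.68. Their median log2 fold change was 1.20 beside 0.01 over all genes. Several ligands had few counts in the WT libraries, such as Wnt3 (2 and 5), Wnt3a (2 and 0) and Wnt8a (5 and 6). That median is therefore imprecise. Of 18 receptors 2 rose and 4 fell: Lgr6, an R-spondin receptor, rose by 2.65, and the Frizzled gene Fzd2 changed by -2.31. Of 11 extracellular inhibitors 4 fell, among them Dkk3 (-2.90) and Sfrp2 (-2.17), and 0 rose, while the median over the 11 was 0.22. Of 28 further targets 5 rose and 8 fell, with Cd44 at 2.10 and the cyclin gene Ccnd2 at -3.26. In Ctbp-Dux TKO against CtbpDKO 15 rose and 10 fell (8.15% of all genes), led by the secreted inhibitor Dkk1 (2.23), the endoderm factor Sox17 (2.00) and Wls (1.71), which carries Wnt proteins to the cell surface. The interaction with Dux was positive for 27 and negative for 10 of the 114 (19.5% of all genes), with Sox17 at 5.34, Evx1 at 4.92, Dkk1 at 4.11 and Ccnd2 at 3.28. In DuxKO against WT 9 rose and 22 fell (17.5% of all genes), and Cdx2, a paralogue of Cdx1, rose by 2.59 there. The cytoplasmic transducers had small changes in CtbpDKO, with 3 of 25 higher and 6 lower and a median of -0.16.

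In the Pramel7 table, Sp5 set WT cells apart from every other genotype. Of the 10 genes, 1 was higher and 2 lower in DuxKO than in WT (16.7% of the 20161 genes tested called). In P7OE against WT 1 was higher and 1 lower (19.9%), and in P7KO against WT 1 was higher and 2 lower (9.48%). These comparisons share the 4 WT libraries. In DuxKO-P7OE against DuxKO 2 were higher and 1 lower (21.4%). DuxKO-P7OE against P7OE gave 0 of the 10 by edgeR (0.0298%, 6 genes in all), with 2 at an unadjusted p under 0.05 and 1 called by DESeq2. Against WT, libraries did not overlap for 38.7% of all genes in DuxKO, 41.6% in P7OE and 32.6% in P7KO. For DuxKO-P7OE the share was 65.7% against DuxKO and 46.6% against P7OE.

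**Figure D2:**
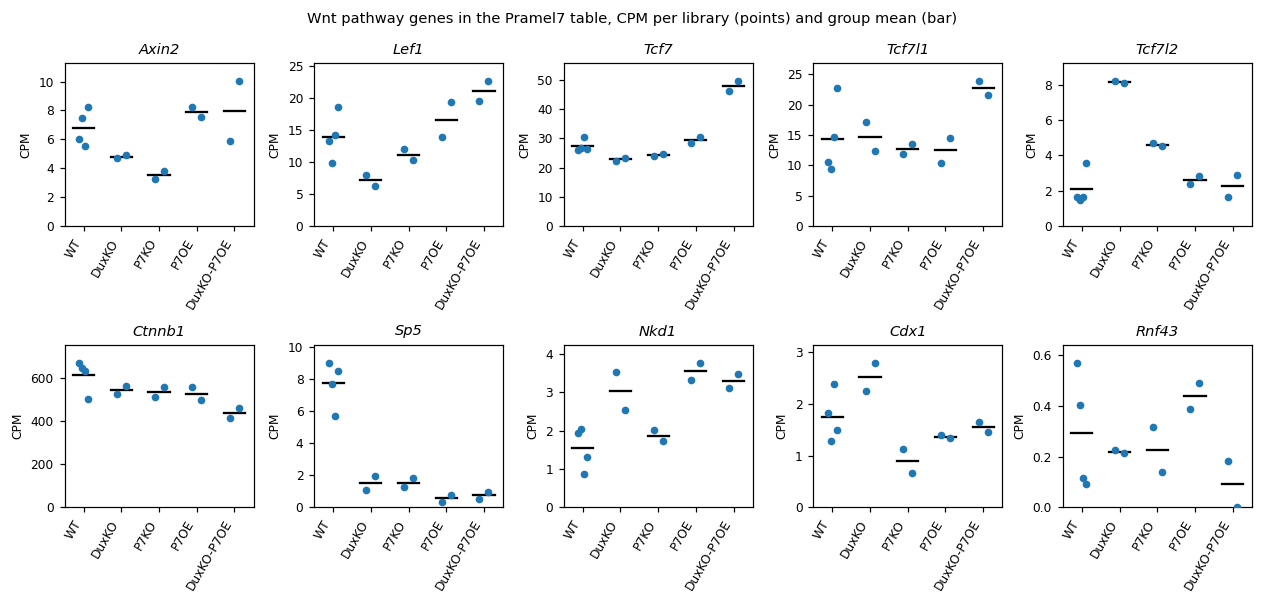
Levels of the 10 genes in the Pramel7 table. Axes, points and bars are as in the plot of the genotype table, with 4 libraries for WT and 2 for each other group. The 4 WT libraries of Sp5 lie between 5.70 and 9.01 CPM, above all 8 others, and both DuxKO libraries of Tcf7l2 lie above 8 CPM.

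Sp5 had 9.01, 7.67, 5.70 and 8.51 CPM in the WT libraries. It had 1.12 and 1.96 in DuxKO, 1.26 and 1.84 in P7KO, 0.35 and 0.791 in P7OE, and 0.55 and 0.964 in DuxKO-P7OE. The lowest WT library was above the highest of the rest, with the overexpressing cells lowest. Sp5 fell 4.89-fold in DuxKO (log2 -2.29, SE 0.351, edgeR adjusted p = 0.000764), 4.98-fold in P7KO (log2 -2.32, SE 0.345, edgeR adjusted p = 0.001) and 14.4-fold in P7OE (log2 -3.85, SE 0.411, edgeR adjusted p = 5.43e-05). Knockout and overexpression of Pramel7 were therefore both below the WT libraries of this table, which all these comparisons share. WT libraries of the genotype table had 0.47 and 1.21 CPM of Sp5, within the range of the other groups here, though the tables were not compared by a test. Pramel7 RNA averaged 0.100 CPM in the WT libraries of this table, which left little for a knockout to lower. The primitive streak markers, 9 genes of which Msgn1 was at 0 in WT, summed to 28.1 to 42.4 CPM in WT, 12.9 to 16.1 in DuxKO, 16.2 to 17.5 in P7KO and 10.7 to 11.1 in P7OE. In the genotype table the sums were 8.61 to 10.8 CPM in WT, 8.31 to 10.2 in DuxKO and 20.1 in CtbpDKO. Mean Sp5 in those 3 groups was 0.838, 0.169 and 0.277 CPM, in that order. The part of these markers in the level of Sp5 was not tested.

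Among the DNA-binding factors, Tcf7l2 stood high in DuxKO cells of this table. It had 8.22 and 8.11 CPM there and 1.63, 1.49, 1.66 and 3.55 in WT, a rise of 3.95-fold (log2 1.98, SE 0.312, edgeR adjusted p = 0.000909). P7KO libraries, with 4.71 and 4.53 CPM, also lay above all 4 WT libraries (log2 1.16, edgeR adjusted p = 0.0367). That call was lost without WT replicate 3, 4 or 5 or either P7KO library (adjusted p from 0.0684 to 0.233), and with only WT replicates 5 and 6 the value was 0.83. With Pramel7 overexpressed in DuxKO cells the level was 1.65 and 2.89 CPM, within the range of WT, and lower than in DuxKO by 3.6-fold (log2 -1.85, SE 0.409, edgeR adjusted p = 0.00708). Without DuxKO-P7OE replicate 1 that value was -1.49 (adjusted p = 0.0738).

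Lef1 and Tcf7 were highest where both changes were combined. Lef1 had 13.2, 9.76, 14.1 and 18.5 CPM in WT, 7.999 and 6.29 in DuxKO, 13.8 and 19.4 in P7OE, and 19.5 and 22.6 in DuxKO-P7OE. It was lower in DuxKO than in WT (log2 -0.96, SE 0.24, edgeR adjusted p = 0.0157), a call lost without DuxKO replicate 3 (0.0536) or replicate 4 (0.183). It rose 2.96-fold from DuxKO to DuxKO-P7OE (log2 1.56, SE 0.274, edgeR adjusted p = 0.00169). Tcf7 had 25.9 to 30.4 CPM in WT, 22.4 and 23.2 in DuxKO, 28.5 and 30.5 in P7OE, and 46.1 and 49.6 in DuxKO-P7OE. It rose 2.1-fold from DuxKO to DuxKO-P7OE (log2 1.07, SE 0.133, edgeR adjusted p = 0.000154), and DuxKO-P7OE lay above every other library of the table for Tcf7 as for Lef1. Against P7OE alone neither gene passed the test. The log2 differences there were 0.35 for Lef1 (edgeR adjusted p = 0.657) and 0.70 for Tcf7 (edgeR adjusted p = 0.103). Pramel7 RNA itself averaged 53.0 CPM in DuxKO-P7OE and 20.1 in P7OE (log2 1.40, edgeR adjusted p = 0.166). The part of the Pramel7 level in those of Lef1 and Tcf7 was not tested. Tcf7l1 ranged from 9.44 to 22.8 CPM among the WT libraries alone, which spanned all but 1 of the others.

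The DuxKO libraries of this table and of the genotype table share no WT library. Lef1 was lower by 0.96 here and 0.88 there (-0.96 and -0.88), and the fitted value of Sp5 was -2.29 in each. Sp5 there rests on 6 and 4 counts against 14 and 37. Its call there, and that of Lef1 in either table, was lost when some single libraries were left out. Axin2 and Tcf7 were lower in both tables but called only there. Nkd1 was at -0.11 there and 0.96 here, called in neither. Tcf7l2 rose by 1.98 here, while its DuxKO libraries in the genotype table overlapped those of WT. Cdx1 rose by 1.86 in the genotype table, and here, with 2.24 and 2.79 CPM in DuxKO and 1.29 to 2.39 in WT, the difference was 0.53 (edgeR adjusted p = 0.302). The differences between the tables were not tested.

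For the inhibitors, Axin2 had 6.06, 7.47, 5.50 and 8.23 CPM in WT and 3.27 and 3.83 in P7KO, a fall of 1.92-fold (edgeR adjusted p = 0.0249) that was lost without either P7KO library (adjusted p = 0.247 and 0.113). DuxKO libraries had 4.70 and 4.89 CPM and P7OE libraries 8.26 and 7.55. Nkd1 had 0.885 to 2.05 CPM in WT and 3.32 and 3.77 in P7OE, where it rose 2.28-fold (edgeR adjusted p = 0.0171). That call was lost without either P7OE library (adjusted p = 0.0799 and 0.129), and the value was 0.79 with only WT replicates 3 and 4. Ctnnb1 lay from 414 to 671 CPM over the table, with the 2 DuxKO-P7OE libraries lowest.

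Of the other pathway genes, 116 were tested here. In P7KO 7 were higher and 18 lower than in WT (9.48% of all genes), in P7OE 13 and 18 (19.9%), and in DuxKO 9 and 13 (16.7%). The ligands had medians of -1.07, -1.20 and -0.59 in these 3 comparisons, beside 0.01, -0.01 and -0.01 over all genes. All 3 medians share the WT libraries of this table. For DuxKO the ligands had 1 higher and 4 lower here. In DuxKO against WT of the genotype table they went the other way, with a median of 0.49, 5 higher and 0 lower. Brachyury, listed as T and a primitive streak factor, changed by -3.67 in P7KO, -5.01 in P7OE and -2.72 in DuxKO. Wnt8a changed by -3.61 in P7KO and Wnt3 by -3.51 in P7OE. Fgf8, a growth factor of the streak, changed by -3.94 in P7KO and -2.84 in DuxKO. Among the genes that rose in P7KO were Ccnd2 (1.93), Porcn (1.38), the enzyme that lipidates Wnt proteins, and Notum (1.11), which removes that lipid. Porcn also rose in DuxKO (1.21), and Sox17 (3.54) and Dkk1 (3.21) rose in P7OE. From DuxKO to DuxKO-P7OE 16 rose and 17 fell (21.4% of all genes), with Sox17 at 4.07, Notum at 1.81 and Cdx2 at -3.47. The 10 primitive endoderm markers, of which Afp was at 0 outside P7OE, summed to 41.5 to 71.0 CPM in WT, 45.1 to 52.4 in P7KO and 104 to 109 in DuxKO. In P7OE the sum was 499 to 521 CPM and in DuxKO-P7OE 413 to 473. The trophoblast markers summed to 107 to 233.5 CPM in WT, 111 to 113 in DuxKO, 55.0 to 58.2 in P7KO, 61.8 to 66.8 in P7OE and 52.1 to 55.4 in DuxKO-P7OE, with Elf5 at 0 in P7KO and P7OE. The part of either marker list in these changes and in the levels of Lef1 and Tcf7 was not tested.

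In the time course Ctbp2 RNA was high at days 3 and 9 and low before and after. It had 58.9 and 59.3 CPM at day 0, 544 and 573 at day 3, 309.8 and 296 at day 9, 49.4 and 44.7 at day 12 and 52.4 and 54.7 at day 18, while Ctbp1 had 0 to 4 counts in all 10 libraries. Of the 10 genes, 1 was higher at day 3 than at day 0 (4.99% of the 20612 genes tested called) and 3 were higher at day 9 than at day 0 (7.34%). The second comparison was added after the values were seen. At day 12 against day 9, 1 was lower (3.84%). By edgeR 0 were called at day 9 against day 3 (1.12%), day 18 against day 12 (0.82%) and day 18 against day 0 (0.514%). In those 3 comparisons 3, 3 and 4 genes had an unadjusted p under 0.05, and DESeq2 called 0 in each. The comparisons share libraries of the days they have in common.

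**Figure D3:**
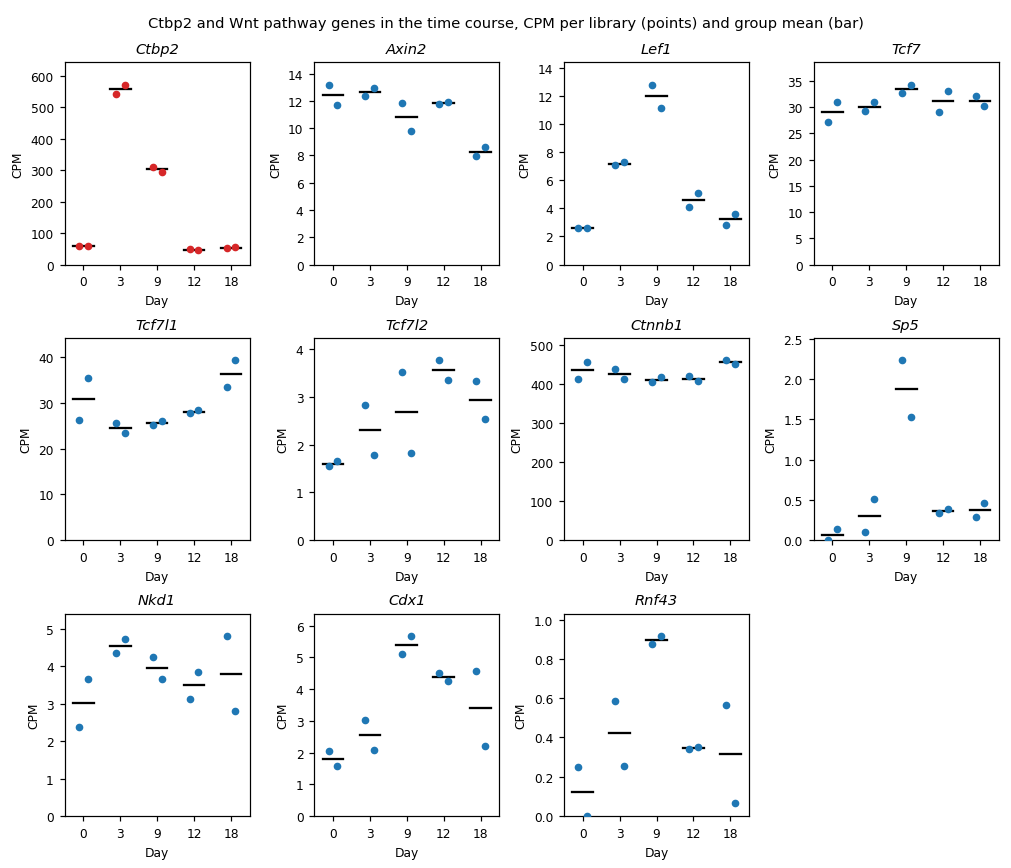
Levels of Ctbp2 and the 10 genes on days 0, 3, 9, 12 and 18, in CPM on axes from 0, with points for the 2 libraries of a day and a bar for their mean. Ctbp2 peaks at day 3, and Lef1, Sp5, Cdx1 and Rnf43 have their highest libraries at day 9.

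Lef1 rose and fell, with its highest level at day 9, 1 time point after that of Ctbp2. It had 2.59 and 2.59 CPM at day 0, 7.09 and 7.29 at day 3, 12.8 and 11.2 at day 9, 4.11 and 5.11 at day 12 and 2.83 and 3.62 at day 18. No library of days 3 or 9 overlapped one of day 0, and day 18 lay just above day 0. Libraries did not overlap those of day 0 for 48% of all genes at day 3, 49.8% at day 9 and 40.6% at day 18. Lef1 rose 2.77-fold by day 3 (log2 1.47, SE 0.221, edgeR adjusted p = 0.0018) and 4.62-fold by day 9 (log2 2.21, SE 0.218, edgeR adjusted p = 3.47e-05). It fell 2.58-fold from day 9 to day 12 (log2 -1.37, SE 0.205, edgeR adjusted p = 0.00234). From day 3 to day 9 the difference was 0.74 (edgeR adjusted p = 0.104). These calls held when each library was left out in turn. Lef1 was thus lower in CtbpDKO than in WT and higher while Ctbp2 RNA was raised, whereas with Dux deleted it was higher in cells without CtBP.

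Sp5 had 0 and 3 counts at day 0, 2 and 10 at day 3, 61 and 35 at day 9, 6 and 11 at day 12 and 5 and 14 at day 18. Its CPM were 2.23 and 1.53 at day 9 and at most 0.51 in every other library. The day 9 level was 27.0 times that of day 0, with an exact 95% interval (Clopper-Pearson on the split of the counts) of 8.98 to 133 that covers counting error only, from 96 counts against 3. The test gave an edgeR adjusted p of 0.00853, lost without day 0 replicate 1 (0.0739) or day 9 replicate 1 (0.0725). Its difference from day 9 to day 12 was -2.34 (edgeR adjusted p = 0.111). Cdx1 had 2.04 and 1.56 CPM at day 0, 3.03 and 2.09 at day 3, 5.12 and 5.67 at day 9, 4.50 and 4.27 at day 12 and 4.58 and 2.19 at day 18. It was higher at day 9 than at day 0 (log2 1.58, SE 0.344, edgeR adjusted p = 0.0125), a call lost without day 0 replicate 2 (0.0947) or day 9 replicate 2 (0.0676). Cdx1, which rose in CtbpDKO over WT, was therefore not lower in any library of days 3 or 9 than in those of day 0.

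Axin2, the gene raised by CtBP loss on every background, had 13.2 and 11.7 CPM at day 0, 12.3 and 12.9 at day 3, 11.8 and 9.77 at day 9, 11.8 and 11.9 at day 12 and 7.92 and 8.61 at day 18. With Ctbp2 RNA raised at day 3 its libraries lay between those of day 0, and the lowest levels came at day 18. From day 12 to day 18 the difference was -0.52 (edgeR adjusted p = 0.183). Tcf7l2 had 1.54 and 1.65 CPM at day 0 and 3.76 and 3.35 at day 12, with days 3 and 9 between 1.78 and 3.51. Tcf7 stayed between 27.1 and 34.3 CPM, Tcf7l1 between 23.4 and 39.3, Ctnnb1 between 404 and 460 and Nkd1 between 2.39 and 4.81. Rnf43 had 24 and 21 counts at day 9 and 0 to 12 at the other days, and its difference from day 0 was 2.85 (edgeR adjusted p = 0.149).

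Of 116 other pathway genes tested in the time course, 4 were higher and 8 lower at day 3 than at day 0 (4.99% of all genes). The Frizzled receptors Fzd2 and Fzd7 rose by 1.70 and 0.94 and the kinase gene Gsk3b by 0.81, while Wnt3a changed by -2.38, the mesendoderm factor Eomes by -1.30 and Sfrp1, a secreted Wnt inhibitor, by -0.77. At day 12 against day 9, 6 were higher and 5 lower (3.84% of all genes), with Sfrp1 at 1.27, Eomes at 0.91, Fzd7 at -0.93 and Fzd2 at -0.86. These 4 genes changed in opposite directions in the 2 comparisons, which share no library. At day 18 against day 0 edgeR called 0 of the 116. The primitive streak markers summed to 23.5 to 24.4 CPM at day 0, 13.5 CPM or less at day 3, 18.2 to 20.5 at day 9 and 28.9 to 33.1 at day 12, with Msgn1 at 0 on each of these days. The trophoblast markers summed to 174 to 188 CPM at day 0, 98.9 to 101.5 at day 3, where Elf5 was at 0, 149 to 154 at day 9 and 198 to 209.9 at day 12. The part of either list in these changes was not tested.

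**Figure D4:**
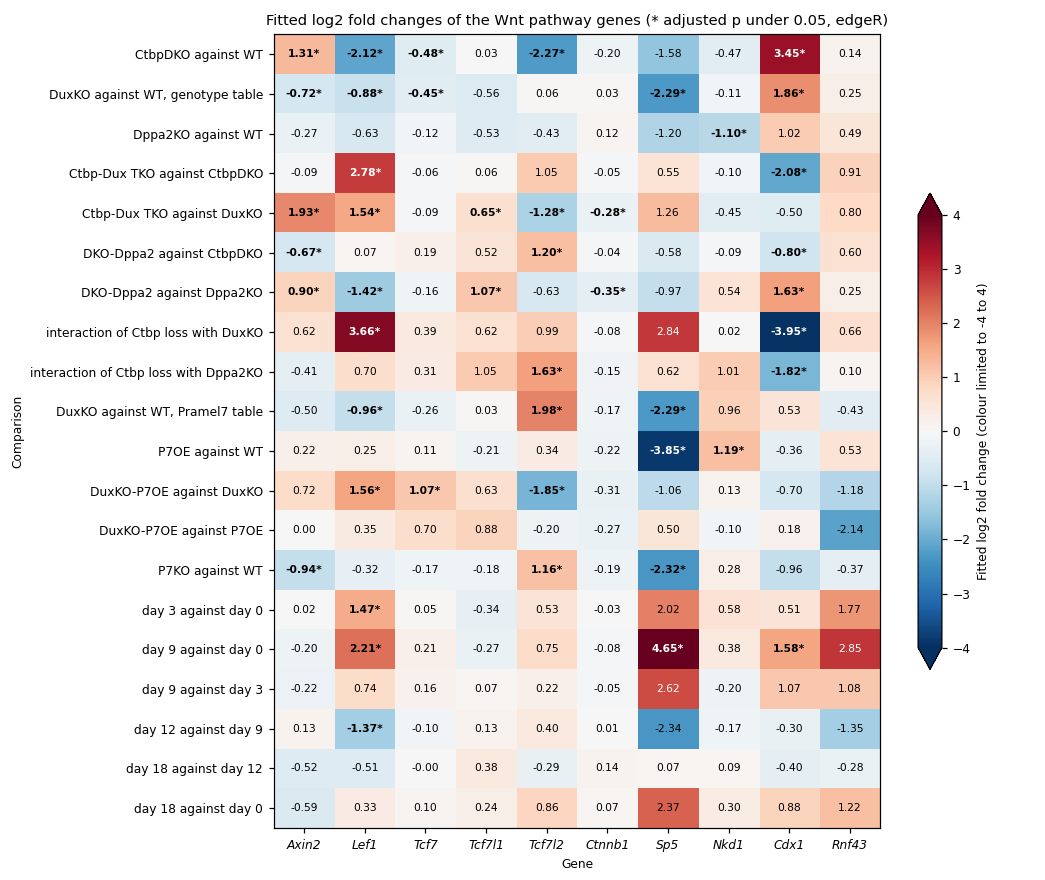
Fitted log2 fold changes of the 10 genes (x axis) in 20 comparisons (y axis), by colour limited to -4 and 4, with the value in each cell and an asterisk where the edgeR adjusted p was under 0.05. Calls gather in Lef1, Axin2, Tcf7l2, Cdx1 and Sp5, Rnf43 has none, and the Sp5 value for day 9 against day 0 rests on 3 counts at day 0.

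The genes whose level over the 34 libraries was most like that of each member were read from log2 CPM centred within each table, over 9944 expressed genes, as a description in which all points share depth and groups. Platr15 (Pearson r = 0.891) was most like Tcf7l2, Ulk4 (0.913) most like Ctnnb1, Rapgef5 (0.864) most like Axin2 and Peg3 (0.848) most like Lef1. Stim1 (0.813) was most like Nkd1, Rpl23a (0.800) and Nipsnap1 (0.795) most like Tcf7, Klf7 (0.800) most like Sp5, Ccnk (0.776) most like Tcf7l1 and Fam13c (0.770) most like Cdx1. For Rnf43 the closest, Amotl1, reached 0.508. No member was the nearest to another: r between members ran from -0.64, for Axin2 with Tcf7l2, to 0.36, and was 0.04 for Axin2 with Lef1. By RefSeq (GRCm38.p6) the 10 genes lie on chromosomes 2 (Sp5), 3 (Lef1), 6 (Tcf7l1), 8 (Nkd1), 9 (Ctnnb1), 11 (Axin2, Rnf43 and Tcf7), 18 (Cdx1) and 19 (Tcf7l2). Tcf7, Tcf7l1, Tcf7l2, Ctnnb1, Cdx1 and Rnf43 overlap other annotated genes, Skp1 in the case of Tcf7. The kit marks strand, but the strand setting of the counting is not given in the sources used here, so reads of such pairs could be shared and those counts are uncertain.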

How the data were processed

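RNA was sequenced in 34 libraries of E14tg2a cells. Libraries were made with a stranded kit, per the labels' protocols. Trim Galore, HISAT2, featureCounts and mm10 are named in the submitters' processing notes, without versions or settings. The deposited tables hold raw read counts per gene symbol, and 0 columns were left unmatched. A second deposited genotype table repeated the first in all 442208 values. The 6 bisulfite libraries were not analysed here.

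Counts were tested with edgeR 4.0.16 (R 4.3.3): filterByExpr, TMM library factors (0.877 to 1.17), and the quasi-likelihood F test with group as the term and all libraries of a table in 1 fit. P-values were adjusted by Benjamini-Hochberg over all genes tested, and genes were called under 0.05. SE is the log2 fold change divided by the root of F. Fitted folds use a prior count of 0.125. Depth ran from 10123058 to 36025046 counts. A gene with up to 3 counts over a group is given as counts with an interval, which covers counting error only. Libraries of 1 group differed by more than sampling noise (chi-square per gene from 14.31 to 166.4). The WT libraries of the Pramel7 table differed most, with 34.42 to 166.4 between pairs, against at most 49.3 in any other group. The code was tested on simulated data.

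The 10 genes and all lists were chosen with earlier results of these data known. Named pathway genes are up to 4 per direction and comparison with the largest fitted change among called genes averaging at least 50 counts in the higher group. Genes most like a member were ranked by r where mean log2 CPM reached 2. Alternatives were other library factors (including those of DESeq2 1.42.0, and DESeq2 itself), no or a stricter filter, a fold minimum, structural RNA genes left out, the compared groups alone, a replicate block, the WT libraries of the Pramel7 table in pairs, and each library left out.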

Additional observations from a re-analysis of the deposited data

Results flagged for a closer look

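Tcf7 in the 4 WT libraries of the Pramel7 table had 1 library, replicate 5 with 30.4 CPM, whose gap to the next was 0.849 of the whole range. Tcf7l2 in the same group had 1 library, replicate 6 with 3.55 CPM, whose gap was 0.918 of the range. Each is above the 95% limit of the Dixon test for 4 libraries. The rule was applied to 10 sets of values, and chance passes it in about 1 of 20. The response to CtBP loss differed with the Dux knockout for Lef1 (interaction 3.66) and Cdx1 (-3.95), and with the Dppa2 knockout for Tcf7l2 (1.63) and Cdx1 (-1.82). Each value is on the log2 scale and passed an edgeR adjusted p of 0.05. The causes were not tested.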

How the results depend on the processing

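Of the 46 called values of single genes, 24 kept their call in every alternative that tested them, 38 in the processing alternatives other than a minimum fold, and 20 lost it with 1 library left out. Over the alternatives run, the median log2 fold change of all genes moved by at most 0.09, with DESeq2. The numbers of genes called follow in the order CtbpDKO, DuxKO and Dppa2KO against WT, Ctbp-Dux TKO against CtbpDKO and DuxKO, DKO-Dppa2 against CtbpDKO and Dppa2KO, and the interactions with Dux and Dppa2. Leaving out 1 library gave ranges of 4 to 5, 1 to 3, 0 to 2, 2 to 2, 4 to 4, 0 to 1, 5 to 6, 2 to 3 and 0 to 2. In the Pramel7 table the ranges were 2 to 4 (DuxKO against WT), 1 to 2 (P7OE), 1 to 3 (P7KO), 3 to 3 (DuxKO-P7OE against DuxKO) and 0 to 0 (against P7OE). In the time course day 9 against day 0 gave 2 to 2, and the others did not move. A mean log2 CPM of at least 2, at which low members were not tested, gave 3 for CtbpDKO and DuxKO (genotype table) against WT and for Ctbp-Dux TKO against DuxKO. It gave 1 for Ctbp-Dux TKO and for DKO-Dppa2 against CtbpDKO, the interaction with Dux, DuxKO (Pramel7 table), P7KO and day 9 against day 0, and 0 for the interaction with Dppa2 and P7OE. A log2 fold change of at least 1 left 2 for DuxKO (genotype table), 3 for Ctbp-Dux TKO against DuxKO and DKO-Dppa2 against Dppa2KO, and 1 for DKO-Dppa2 against CtbpDKO. Fitting only the groups compared gave 3 for Ctbp-Dux TKO against DuxKO, 1 for P7OE against WT and for DuxKO-P7OE against P7OE, and 2 for day 12 against day 9. Without a filter there were 3 for Dppa2KO, 1 for DuxKO-P7OE against P7OE, and 2 for day 9 against day 3 and day 12 against day 9. DESeq2 gave 2 for Dppa2KO and 1 for DuxKO-P7OE against P7OE, and upper quartile factors 2 for Dppa2KO. Libraries of the same number share only a number (correlation of their deviations from -0.07 to 0.09). The replicate block gave 5 for DuxKO against WT (Pramel7 table) and 1 for DuxKO-P7OE against P7OE, moved no other number by over 1.5 times, and ended the calls of Sp5 in DuxKO (genotype table), Tcf7l1 in Ctbp-Dux TKO against DuxKO and Cdx1 in DKO-Dppa2 against CtbpDKO. No paired analysis was possible for P7OE and P7KO against WT and DuxKO-P7OE against DuxKO because they share no replicate number. Among the 107 values called or of at least 0.5 in size, directions turned for Rnf43 and Sp5 alone. With 1 library left out, Rnf43 ran from -1.10 (without DKO-Dppa2 replicate 2) to 1.32 in DKO-Dppa2 against CtbpDKO and from -0.80 (without day 18 replicate 1) to 5.75 in day 18 against day 0. Sp5 ran from -0.21 (without WT replicate 2) to 1.14 in the interaction with Dppa2 and from -0.08 (without P7OE replicate 1) to 1.05 in DuxKO-P7OE against P7OE. With only WT replicates 3 and 4, Rnf43 was at -0.21 in P7OE against WT. The causes were not tested. Counts as low as 0 and 3 for Sp5 at day 0, and 14 and 16 for Cdx1 in WT (genotype table), limit the precision of such values.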

Other observations

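WT cells of the 2 tables differed in the levels of some of these genes, which were not compared by a test because the tables are separate. Sp5 had 0.47 and 1.21 CPM in WT cells of the genotype table and 5.70 to 9.01 in those of the Pramel7 table. Wnt3, a ligand of the primitive streak, had a mean of 0.115 CPM (SD 0.0678, n = 2) in the first and 4.15 (SD 0.506, n = 4) in the second. Tcf7l1 went the other way, with 29.0 and 33.3 CPM against 9.44 to 22.8. CtbpDKO cells of the genotype table had 5.76 and 5.17 CPM of Cdx1, and the day 0 cells of the time course, also labelled CtbpDKO, 2.04 and 1.56.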
